A study of Mus musculus with 26 samples.

Results

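The let-7 family was described in 26 small RNA libraries of mouse hippocampus through 9 of its miRNAs, mmu-let-7a-1, mmu-let-7b, mmu-let-7c-1, mmu-let-7d, mmu-let-7e, mmu-let-7f-1, mmu-let-7g, mmu-let-7i and mmu-mir-98. They were chosen by name, with 1 precursor entry for each miRNA, out of 14 entries of the family and 1054 miRNA entries in the table. All 9 passed the filter on low counts and were tested among 463 miRNA entries. The other entries of the family, mmu-let-7a-2, mmu-let-7c-2, mmu-let-7f-2, mmu-let-7j and mmu-let-7k, are set beside them where they bear on a value. The family accounted for 10.9% to 19.3% of all miRNA counts, depending on the library, and the 9 entries alone for 7.33% to 12.96%.

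The libraries came from the dorsal (dHC) and ventral (vHC) hippocampus, both hemispheres, of male C57BL/6J mice aged 2 to 3 months, with no transgene or deletion in any group. Control mice stayed in the home cage and gave 8 vHC and 6 dHC libraries, and mice that swam for 6 min in water of 18 °C gave 6 vHC and 6 dHC libraries at 45 mins. The labels also give each library a dated block, called block 1 (10 libraries), block 2 (8) and block 3 (8) here in order of date, and every group has libraries in all 3 blocks. The labels do not tie a dHC library to the vHC library of the same mouse, so p-values measure the spread between libraries. Total miRNA counts were between 465387 and 4819724. Control dHC library 24 had the fewest counts, followed by swim dHC library 22 with 1357739. The neuronal miRNAs mir-124, mir-9 and mir-128 (8 entries) summed to between 175280 and 246442 CPM (miRNA counts scaled to a fixed total per library) in all libraries, and no marker of blood, choroid plexus, endothelium or immune cells was at 0 in a whole group. In bulk tissue, fewer cells of a type and less RNA per cell cannot be told apart.

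let-7 was among the earliest miRNAs to be described, as a regulator of developmental timing in worms. A mature miRNA guides a silencing complex to mRNAs that match its seed, the stretch near its 5′ end, and the members of a family share that seed and therefore many targets. In the brain the family is known for rising as neural progenitors differentiate and for staying high in mature neurons, and LIN28 blocks the processing of most of its precursors in immature cells.

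The mature 5′ arm miRNAs are shown because the family shares its seed, and because the small differences behind the seed decide how reads can be assigned. Sequences are from RefSeq (GRCm38.p6), run 5′ to 3′, and have the seed, bases 2 to 8, in capitals. All 14 entries had a match in that table. let-7j, which is no member of the set, is printed last for its altered seed.
mmu-let-7a-5p: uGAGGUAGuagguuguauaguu
mmu-let-7b-5p: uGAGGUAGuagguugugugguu
mmu-let-7c-5p: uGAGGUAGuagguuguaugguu
mmu-let-7d-5p: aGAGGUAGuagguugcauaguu
mmu-let-7e-5p: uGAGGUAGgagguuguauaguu
mmu-let-7f-5p: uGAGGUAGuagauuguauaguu
mmu-let-7g-5p: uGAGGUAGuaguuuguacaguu
mmu-let-7i-5p: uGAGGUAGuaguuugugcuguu
mmu-miR-98-5p: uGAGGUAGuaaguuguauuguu
mmu-let-7j: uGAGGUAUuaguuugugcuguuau

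All 9 members had the seed GAGGUAG and a length of 22 bases. Substitutions are given with the base of let-7a-5p first, then the position counted from 1 at the 5′ end, then the base of the other miRNA. let-7c differed from let-7a by A19G, let-7e by U9G and let-7f by G12A, which is 1 base each. let-7b differed by A17G and A19G, let-7d by U1A and U16C, let-7g by G12U and U18C, and mir-98 by G11A and A19U. let-7i stood farthest from let-7a among the members, with the 4 substitutions G12U, A17G, U18C and A19U. let-7j carried these and G8U, which lies in the seed and is its 1 difference from let-7i over the shared length. Outside the family, the RefSeq table listed the let-7 seed for mmu-miR-1961 only.

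The precursors of the 9 members lay on 6 autosomes and the X chromosome (GRCm38), and all 14 hairpins had the same coordinates in GENCODE vM21. mmu-let-7a-1 (chr13:48538179-48538272), mmu-let-7f-1 (chr13:48537829-48537917) and mmu-let-7d (chr13:48536012-48536114) lay close together on the minus strand, each overlapping an exon of a long noncoding RNA, 6720427I07Rik. mmu-let-7b (chr15:85707319-85707403) followed mmu-let-7c-2 (chr15:85706603-85706697) on the plus strand within exonic sequence of the processed transcript Lncppara. mmu-let-7c-1 (chr16:77599657-77599750) was intronic in Mir99ahg, near mir-99a and mir-125b-2. mmu-let-7e (chr17:17830352-17830444) was intronic in Spaca6, near mir-99b and mir-125a. mmu-let-7g (chr9:106178840-106178927) was intronic in Wdr82, mmu-mir-98 (chrX:151913214-151913321) was intronic in Huwe1 beside mmu-let-7f-2, and mmu-let-7i (chr10:122985640-122985724) overlapped an exon of the transcribed pseudogene D630033A02Rik.

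The table gives expected counts per precursor entry, so the 5′ and 3′ arms of a hairpin are summed and a sequence that fits several hairpins can be divided among them. Of the family's values, 98.9% were more than 0.001 from a whole number, against 53.3% for the 65 other entries at least as abundant as the lowest member. The total miRNA count of every library lay within 0.15 of a whole number, while the sum of the family's 14 entries was up to 0.5 from one. let-7a-5p occurred exactly in 2 of the family's hairpins and with at most 1 mismatch in 7, which is the most for any member. let-7c-5p had 2 exact hosts and 5 with at most 1 mismatch, and let-7f-5p had 2 and 4. let-7d, let-7g and mir-98 had a single hairpin at both settings.

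Copies of 1 mature miRNA were counted at nearly fixed proportions. mmu-let-7a-1 stood at between 101.5% and 103.0% of mmu-let-7a-2, mmu-let-7c-1 at between 95.4% and 97.6% of mmu-let-7c-2, and mmu-let-7f-1 at between 91.1% and 97.8% of mmu-let-7f-2. The values of these members therefore describe both loci of the mature miRNA, and which locus supplied it is uncertain. mmu-let-7j was counted at between 61.2% and 71.7% of mmu-let-7i (median 66.7%), although its mature sequence differs by G8U. Whether its counts were reads of let-7i was not tested. mmu-let-7k stayed between 0.513% and 0.724% of mmu-let-7b.

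The level of each member was expressed as its share of the miRNA counts of a library. mmu-let-7g led the 9 entries with 2.56% ± 0.319 (SD, n = 26) and was the 6th most abundant of all miRNA entries by mean share. Its lowest, median and highest shares were 1.81%, 2.57% and 3.24%. mmu-let-7a-1 followed with 1.70% ± 0.261 (SD, n = 26), between 1.11% and 2.34%. Both gaps, from mmu-let-7g to mmu-let-7a-1 and from there to the next entry, were wider than the SD of the entries on either side.

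The middle of the order was close. mmu-let-7c-1 had 1.20% ± 0.220, mmu-let-7f-1 1.13% ± 0.150 and mmu-let-7i 1.06% ± 0.136 (SD, n = 26), with neighbours apart by less than 1 SD. mmu-let-7d (0.854% ± 0.165) and mmu-let-7b (0.833% ± 0.163) were likewise not separated. mmu-let-7e, with 0.482% ± 0.0905, and mmu-mir-98, with 0.313% ± 0.0430, stood below the others by more than their SD.

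Summing copies changed the order. let-7a then had 3.36% ± 0.519 (SD, n = 26) and stood first, above mmu-let-7g. let-7c had 2.45% ± 0.445 and let-7f 2.31% ± 0.312 with their copies summed, each within 1 SD of mmu-let-7g. Across libraries, the highest share of mmu-let-7d was 3.102 times its lowest, the widest such range among the 9 members. That of mmu-let-7i was the narrowest, at 1.57 times. Such a range rests on single libraries, for mmu-let-7d on swim dHC library 6 (0.428%) and control vHC library 1 (1.33%).

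**Figure D1:**
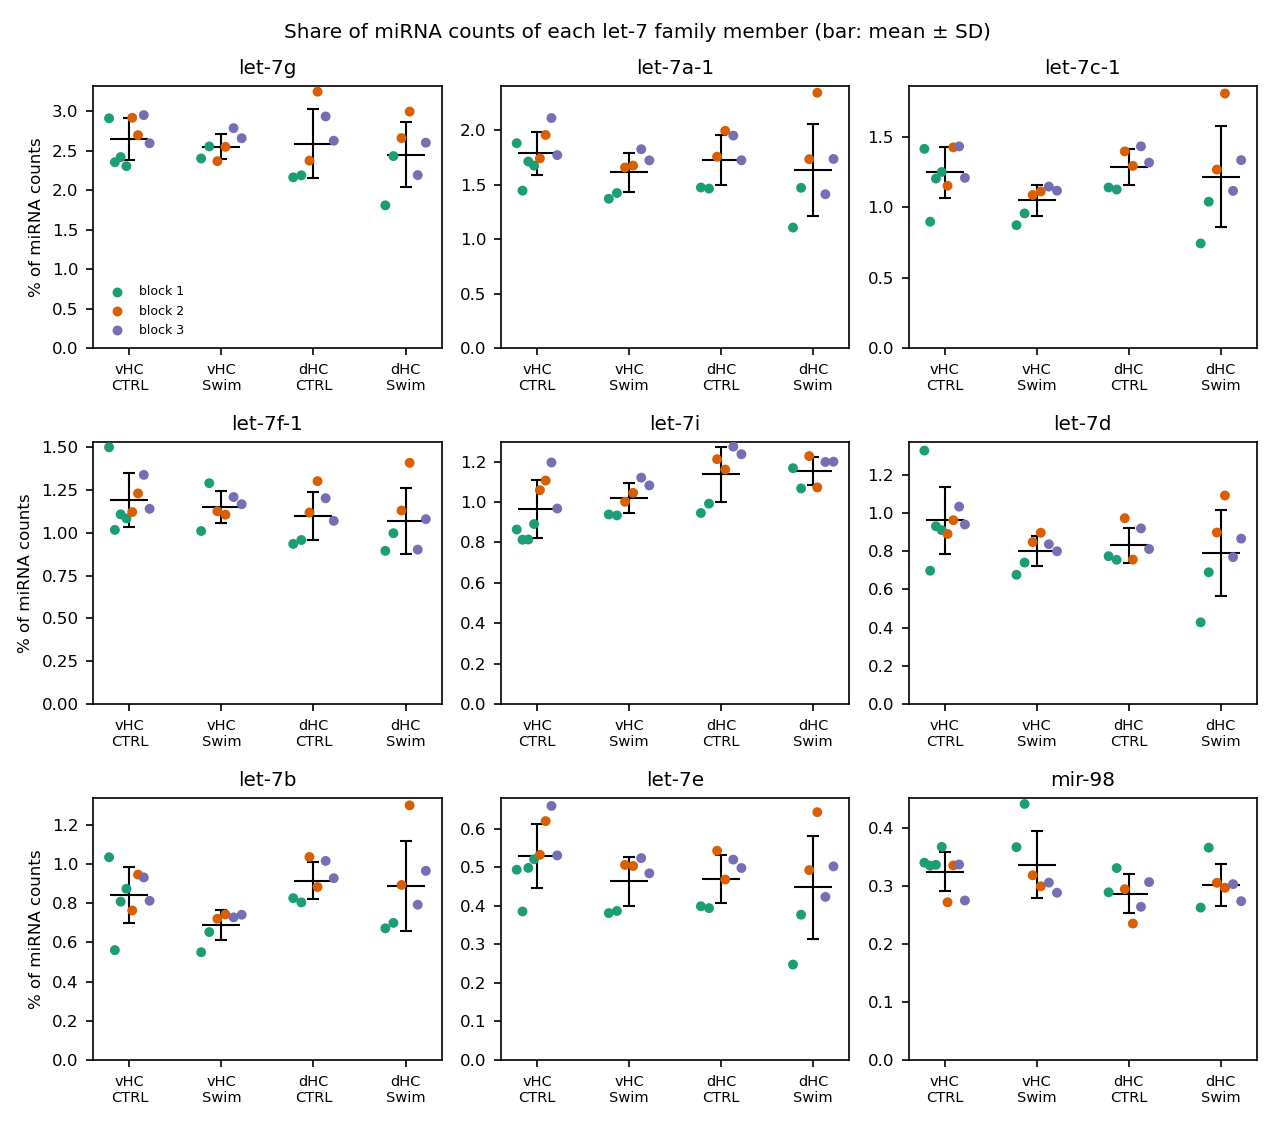
Share of miRNA counts (percent, vertical axes from 0) of the 9 members in control and swim libraries of vHC and dHC, 1 point per library coloured by block, with mean ± SD per group. The groups overlap for every member, and block 1 points tend to lie low in their group for let-7e and let-7i and high for mir-98.

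How far members moved apart was measured by the SD, over the 26 libraries, of the log2 ratio of the counts of 2 members, which does not depend on scaling between libraries. Over the 36 pairs the SD was between 0.10 and 0.39, with a median of 0.23. The closest pair was mmu-let-7b with mmu-let-7c-1 (0.10), whose mature sequences differ by 1 base, and next was mmu-let-7f-1 with mmu-let-7g (0.11). mmu-let-7a-1 with mmu-let-7c-1 also had 0.11, and mmu-let-7a-1 with mmu-let-7e 0.12.

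The pairs of mmu-mir-98 and mmu-let-7i were wider than most. Every pair with mmu-mir-98 had an SD of at least 0.26 and every pair with mmu-let-7i at least 0.23, while the 21 pairs without either had a median of 0.19 and reached 0.25. With the block means removed, the 8 pairs with mmu-mir-98 narrowed to between 0.21 and 0.32, that with mmu-let-7e from 0.36 to 0.21, and the 8 with mmu-let-7i stood at 0.24 to 0.37. The pairs without either then reached 0.26, so that those of mmu-mir-98 were no longer all above them. The widest pairs were mmu-let-7b with mmu-mir-98 (0.39), mmu-let-7e with mmu-mir-98 and mmu-let-7d with mmu-let-7i (both 0.36). mmu-let-7d and mmu-let-7f-1, which share a transcript with mmu-let-7a-1, had SDs of 0.17 and 0.14 against it. mmu-mir-98 and mmu-let-7f-1, whose second copy shares a host with mmu-mir-98, had 0.26.

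**Figure D2:**
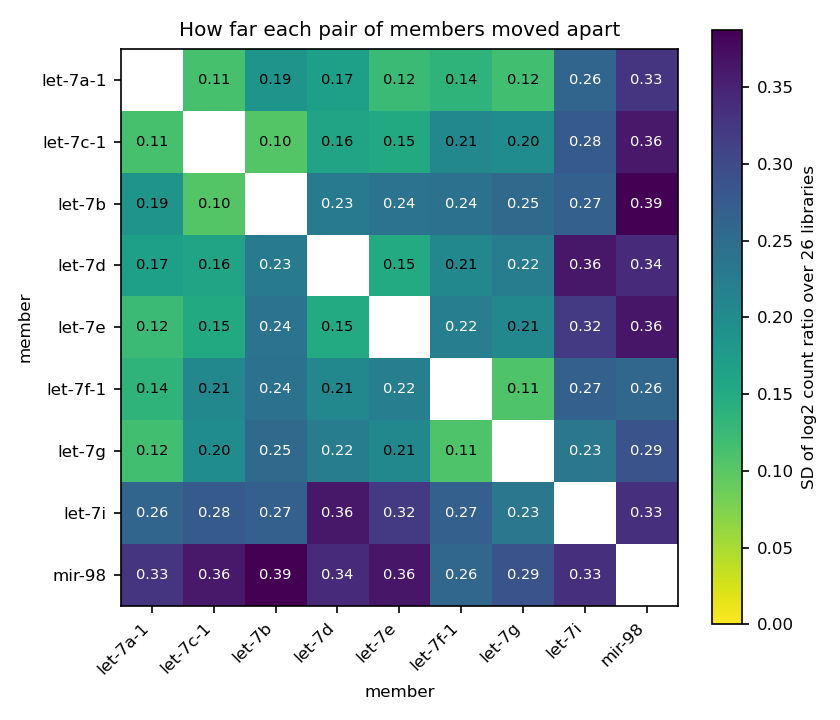
SD over 26 libraries of the log2 ratio of counts for each pair of members (rows and columns, colour and printed value). All pairs in the rows of let-7i and mir-98 are at 0.23 or more, let-7b with let-7g reaches 0.25 outside them, and let-7b with let-7c-1 is the closest pair at 0.10.

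3 ratios were followed by group after the pairs had been seen, as a description without a test. The log2 ratio of mmu-let-7i to mmu-let-7d had a lowest, median and highest value of -0.62, 0.12 and 0.25 in control vHC and of 0.29, 0.43 and 0.62 in control dHC. These ranges did not overlap, in a contrast that called 22.5% of all miRNA entries. Of the 36 ratios between members, 3 (8.33%) did not overlap there, and of the 463 entries 6.7% by normalized CPM. After swim the ranges of mmu-let-7i to mmu-let-7d did overlap, with 0.22 to 0.47 in vHC and -0.03 to 1.45 in dHC. Between swim and control, 1 of the 36 ratios (2.78%) did not overlap in vHC, that of mmu-let-7c-1 to mmu-let-7i, and 0 in dHC. Of the 463 entries by normalized CPM, 0% did not overlap in either region.

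The log2 ratio of mmu-let-7b to mmu-let-7f-1 ranged from -0.98 to -0.57 in swim vHC and from -0.51 to -0.12 in swim dHC, again without overlap, in a contrast that called 20.3% of entries. There 6 of the 36 ratios (16.7%) did not overlap, 4 of them with mmu-let-7b, and of the single entries 5.83% by normalized CPM. In each contrast these shares are unlike measures, since scaling between libraries drops out of a ratio only. Ratios between other entries were not counted, so no excess can be read from the shares. In control libraries the ratio of mmu-let-7b to mmu-let-7f-1 overlapped, ranging from -0.86 to -0.31 in vHC and from -0.56 to -0.11 in dHC. The ratio of mmu-let-7i to mmu-mir-98 differed by block, with log2 medians of 1.35 in block 1, 1.91 in block 2 and 1.94 in block 3, over ranges of 1.08 to 2.15, 1.65 to 2.30 and 1.81 to 2.27.

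The first question of the design was whether swim stress changed miRNA levels. No member was called in vHC, as no entry at all was: the background was 0% of 463 entries at a Benjamini-Hochberg adjusted p of 0.05 in the quasi-likelihood test of edgeR. In DESeq2 the count of members was also 0. At an unadjusted p under 0.05 there were 3 members, all with lower values after swim, and 7.34% of all entries.

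In vHC the share of mmu-let-7b had a lowest, median and highest value of 0.560%, 0.843% and 1.03% in control and of 0.550%, 0.724% and 0.742% after swim. All swim libraries lay under the control median, and the ranges overlapped. The fitted log2 difference was -0.26 (SE 0.10, 95% interval -0.48 to -0.05), with an adjusted p of 0.617 by edgeR. mmu-let-7d had shares of 0.698%, 0.935% and 1.33% in control and of 0.676%, 0.818% and 0.896% after swim, and its log2 difference was -0.24 (SE 0.11, 95% interval -0.47 to -0.01). mmu-let-7c-1 gave -0.21 (SE 0.10, 95% interval -0.42 to -0.01), with shares of 0.898%, 1.23% and 1.43% in control and of 0.874%, 1.10% and 1.15% after swim. For these members too the highest values belonged to controls and the ranges overlapped. Without swim vHC library 15, mmu-let-7d gave -0.13 and mmu-let-7c-1 -0.12, while mmu-let-7b stayed between -0.29 and -0.19 with any 1 library left out. Without control vHC library 1 or swim vHC library 27, mmu-let-7d gave -0.15. Each such fit estimated the surrogate variables anew. A shift can therefore not be assigned to the values of the library left out.

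The remaining members stood nearer to 0 in vHC, with log2 differences of -0.16 for mmu-let-7e and -0.10 for mmu-let-7a-1. These were -0.044 and -0.013 without swim vHC library 15. Without swim dHC library 20, which is not part of this contrast, they were -0.098 and -0.044. mmu-let-7f-1 (-0.00053), mmu-let-7g (0.01), mmu-mir-98 (0.07) and mmu-let-7i (0.10) had 95% intervals within -0.19 to 0.28. The median over the 9 members was -0.10, against -0.03 over all 463 entries, and their adjusted p were between 0.617 and 0.9996 in edgeR. Within blocks, where each difference rests on 2 swim and 2 or 4 control libraries, 6 members were lower after swim in all 3 blocks and 3 had mixed signs. Of the 461 entries above 0 in all these libraries, 16.1% were lower and 18.7% higher in all 3 blocks. Members of similar sequence can share reads and are not separate observations. For mmu-let-7b the differences of mean log2 CPM were -0.39, -0.32 and -0.21 in blocks 1, 2 and 3.

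In dHC the swim difference was between -0.15 for mmu-let-7e and 0.07 for mmu-mir-98, and 0 of 9 members were called (background 0%), with 0 at an unadjusted p under 0.05 in edgeR and 0 called in DESeq2. The 95% intervals of the members lay between -0.39 and 0.24. mmu-let-7e had shares of 0.394%, 0.483% and 0.543% in control and of 0.248%, 0.458% and 0.643% after swim. The swim range enclosed the control range. Within blocks, 1 member was lower in all 3 blocks, where 7.03% of 441 entries were, and 8 had mixed signs.

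When stress and its interaction with region were tested together, 0 of 9 members were called (background 0%), with 1 at an unadjusted p under 0.05 (3.46% of entries) and adjusted p between 0.725 and 0.942 in edgeR. The interaction alone also called 0 members (background 0%), with 0 at an unadjusted p under 0.05. Its log2 values were between -0.11 for mmu-let-7i and 0.16 for mmu-let-7b, so a different swim response in the 2 regions was not shown. No marker of neurons, blood, choroid plexus, endothelium or immune cells was called in these tests.

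**Figure D3:**
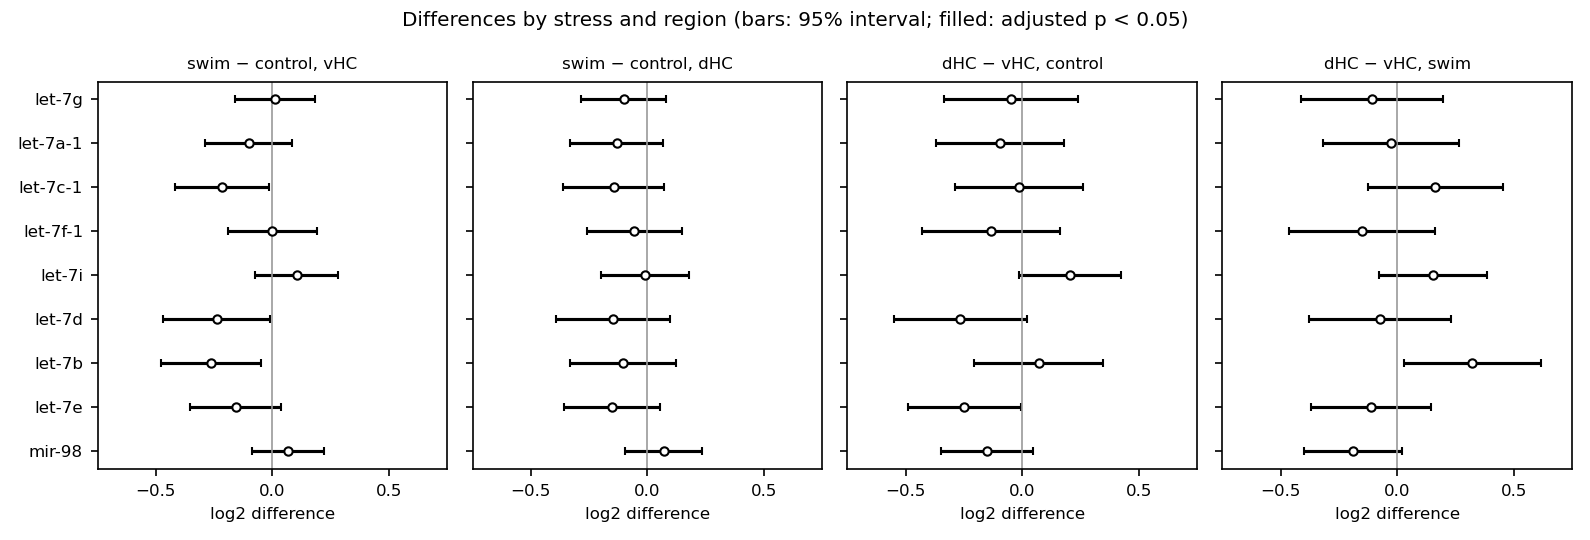
Log2 differences of the 9 members (horizontal axes) between swim and control in vHC and dHC and between dHC and vHC in control and swim mice, with 95% intervals. No point is filled, since no adjusted p was under 0.05, and the lowest stress value is that of let-7b in vHC at -0.26.

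Between regions, 0 of 9 members were called in control mice, where 22.5% of the 463 entries were, and 0 of 9 after swim, where 20.3% were, in the quasi-likelihood test of edgeR with block as covariate. At an unadjusted p under 0.05 there was 1 member in each, where 37.6% of entries were in control mice and 32.4% after swim. DESeq2 called 0 members in both, where it called 28.7% of entries in control mice and 22.5% after swim. The blood markers (2 of 4 lower in control dHC) and the choroid plexus markers (5 higher and 3 lower of 8) did differ between regions in control mice. Summed choroid plexus markers were between 2677 and 3827 CPM in control vHC and between 2786 and 6639 CPM in control dHC. Their part in the members' values was not tested.

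mmu-let-7i was the member with the largest value toward dHC in control mice. Its shares were 0.813%, 0.929% and 1.20% in control vHC and 0.945%, 1.19% and 1.27% in control dHC, lowest, median and highest. By share, all dHC libraries lay above the vHC median, and the ranges overlapped. In normalized CPM, which has the scaling of the fit, the lowest control dHC library had 8878, under the control vHC median of 9174. The log2 difference was 0.21 (SE 0.11, 95% interval -0.01 to 0.42), with an adjusted p of 0.156 by edgeR. After swim it was 0.15, and 0.072 without swim dHC library 6. mmu-let-7e had shares of 0.386%, 0.526% and 0.660% in control vHC and of 0.394%, 0.483% and 0.543% in control dHC, with a log2 difference of -0.25 (SE 0.12, 95% interval -0.49 to -0.01) and an adjusted p of 0.127. mmu-let-7d gave -0.27 (SE 0.14) in control mice, which was -0.14 without control vHC library 1, and -0.07 after swim.

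After swim, mmu-let-7b had the largest difference. Its shares were 0.550%, 0.724% and 0.742% in vHC and 0.672%, 0.842% and 1.30% in dHC. The ranges overlapped, and the highest value was that of swim dHC library 22. The log2 difference was 0.32 (SE 0.14, 95% interval 0.03 to 0.62), with an adjusted p of 0.117 by edgeR, against 0.07 in control mice. It was 0.15 without library 22 of swim dHC, and had an adjusted p of 0.0425 with the log2 total miRNA count as covariate, which made it the 1 member called there.

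The regional values depended on the covariates. With 2 surrogate variables in place of block, 3 members were called in each region contrast, mmu-let-7f-1, mmu-let-7g and mmu-mir-98, all higher in dHC and at odds in sign with the values under block. In that fit 4.32% of the 463 entries were higher and 12.5% lower in control dHC, and 3.02% and 9.72% after swim. The second surrogate variable had 91.1% of its variance between regions and the first 72.7% between blocks, so the former cannot be told apart from region, and the median log2 difference over all entries was -0.22 in control mice in that fit.

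Members were called between the dated blocks. Of the 9 members, 4 were called over the 3 blocks together (mmu-let-7a-1, mmu-let-7c-1, mmu-let-7e and mmu-let-7i), which is no larger a share than the 53.1% of all entries. In DESeq2, and without control vHC library 1, 7 were called, without a share of all entries to set beside them. Block 2 was higher than block 1 for 6 of 9, where 22.7% of entries were higher, and for 5 to 8 with 1 library left out. Block 3 was higher than block 1 for 4 of 9, where 22% were higher, and lower for 1 of 9, where 30% were lower. The former count was 1 without control vHC library 25 and 2 without swim vHC libraries 5, 21 or 27, swim dHC library 6 or control dHC library 26, each left out singly. Blocks 2 and 3 did not separate any member or entry (0 of 9, background 0%), with 0 members at an unadjusted p under 0.05 in edgeR. Members that differ by 1 base can share reads, so the 9 may not be separate observations of the block differences.

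mmu-let-7e changed most. Its shares were 0.248%, 0.391% and 0.521% in block 1, 0.468%, 0.520% and 0.643% in block 2 and 0.423%, 0.512% and 0.660% in block 3, lowest, median and highest. By share, the median of block 1 lay under every library of the other blocks, with some overlap of the ranges. In normalized CPM, which has the scaling of the fit, it did not. There the block 1 median was 3887 and the lowest library of block 3 had 3778. The log2 difference from block 1 was 0.50 (SE 0.10) in block 2 and 0.41 (SE 0.10) in block 3, with adjusted p of 0.000334 and 0.00201 by edgeR, and both calls held with any 1 library left out.

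mmu-let-7a-1 rose from block 1 to block 2 by 0.39 (SE 0.12) and to block 3 by 0.29 (SE 0.12) on the log2 scale, and mmu-let-7c-1 by 0.37 and 0.29. The calls in block 3 were lost for both in 7 of the 26 fits with 1 library left out. mmu-let-7i, with shares of 0.813%, 0.936% and 1.17% in block 1, 1.001%, 1.09% and 1.23% in block 2 and 0.968%, 1.20% and 1.27% in block 3, rose by 0.25 and 0.28 (SE 0.09 each). Its call in block 2 was lost with no filter (adjusted p 0.0820 by edgeR) and that in block 3 without control vHC library 25 (0.0574). In block 2 alone mmu-let-7b (0.33) and mmu-let-7d (0.31) were also higher, the latter not in 4 of the 26 fits or with depth as covariate (adjusted p 0.0530 by edgeR). mmu-let-7g (0.28) and mmu-let-7f-1 (0.22) did not pass the test, with adjusted p of 0.0602 and 0.157 by edgeR, although mmu-let-7g did in 14 of the 26 fits and, at 0.0219 to 0.0402, in DESeq2, with its size factors, with no filter and with copies summed.

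mmu-mir-98 went the other way. Its shares were 0.263%, 0.338% and 0.442% in block 1, 0.235%, 0.298% and 0.336% in block 2 and 0.264%, 0.296% and 0.337% in block 3. By share, the median of block 1 lay just above the highest library of either other block. In normalized CPM, which has the scaling of the fit, the block 1 median was 3472 and block 3 reached 3704. From block 1 to block 2 mmu-mir-98 gave -0.18 on the log2 scale, with an adjusted p of 0.0711 by edgeR. It fell by 0.21 (SE 0.09) from block 1 to block 3, with an adjusted p of 0.0450 by edgeR. The call was lost with DESeq2's size factors (adjusted p 0.208), TMMwsp (0.326), DESeq2 (0.230), no filter (0.239) and copies summed (0.109), and in 22 of the 26 fits with 1 library left out, where the value went to -0.13 without swim dHC library 16.

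Over all entries, 105 were higher and 138 lower in block 2 than in block 1, and 102 higher and 139 lower in block 3. With DESeq2's size factors in edgeR these splits were 137 to 119 and 121 to 115. Of the neuronal marker entries, which are precursor copies of mir-124, mir-9 and mir-128 and can share reads, 3 of 8 were lower in blocks 2 and 3. Their sums were 191430 to 236225 CPM in block 1, 179368 to 246442 in block 2 and 175280 to 206414 in block 3. Of the other lists, blood had 2 of 4 higher and 1 lower in block 2 and 1 lower in block 3, choroid plexus 2 of 8 higher and 1 lower in each, and immune cells 1 of 3 lower in each. The endothelial marker was higher in block 3 (0.44 on the log2 scale). The part of these markers in the block values of the family was not tested.

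**Figure D4:**
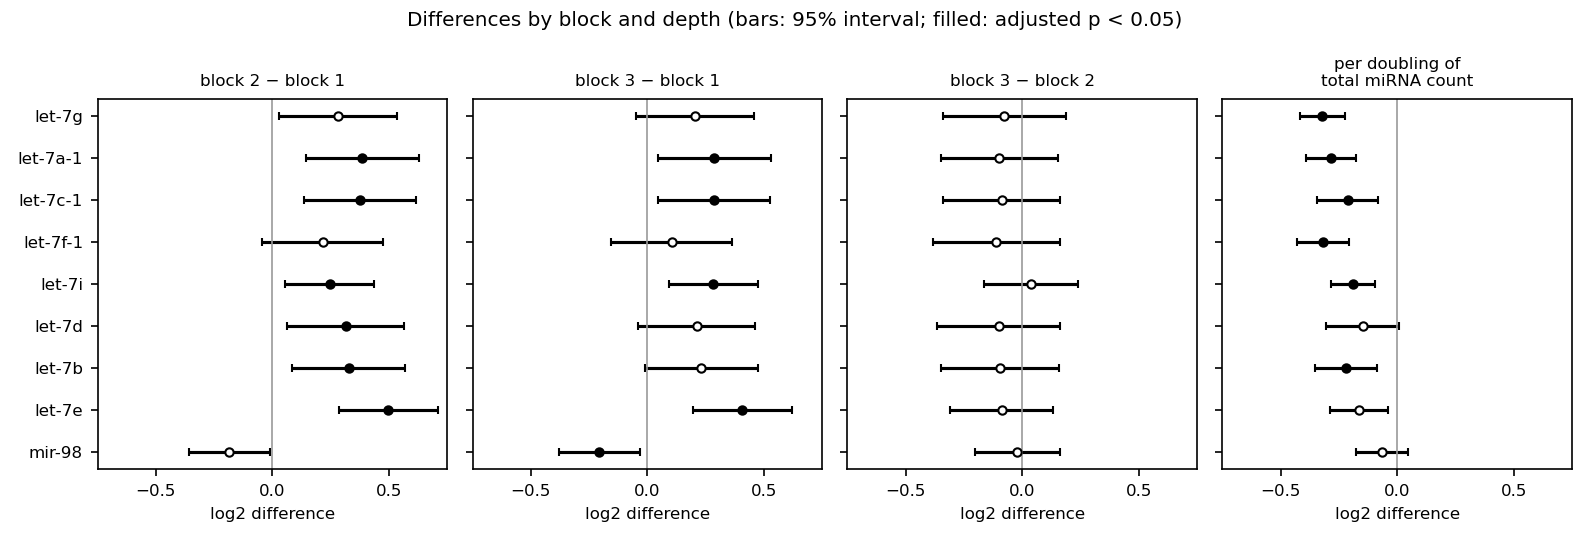
Log2 differences of the 9 members between blocks and per doubling of the total miRNA count (horizontal axes), with 95% intervals, filled where the adjusted p was under 0.05. let-7e leads the block differences at 0.50 and 0.41, mir-98 lies on the other side of 0, and all depth values are below 0.

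The total miRNA count of a library moved with most of the family. With group and block in the model, 6 of 9 members were lower at a higher total, where 5.62% of the 463 entries were, and none was higher. The median change per doubling of the total was -0.21 on the log2 scale over the 9 members and 0.05 over all entries. Members that differ by 1 base can share reads, so the 9 may not be separate observations of this relation.

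mmu-let-7g fell by 0.32 (SE 0.05) per doubling on the log2 scale, with an adjusted p of 1.8e-05 by edgeR. Its share was 3.24% in control dHC library 24, the library with the lowest total, and 2.19% in swim dHC library 28, that with the highest. Shares lack the scaling of the fit. In normalized CPM, which has it, mmu-let-7g stood at 43307 and 19527 in these libraries, farther apart than by share. mmu-let-7f-1 fell by 0.32 (SE 0.05) and mmu-let-7a-1 by 0.28 (SE 0.05), with adjusted p of 0.000146 and 0.000312.

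mmu-let-7b (-0.22), mmu-let-7c-1 (-0.21) and mmu-let-7i (-0.19) were also called. mmu-let-7e (-0.16), mmu-let-7d (-0.15) and mmu-mir-98 (-0.07) did not pass, with adjusted p of 0.122, 0.205 and 0.470 by edgeR. Without the library with the lowest total, every member had its lowest depth value among the fits with 1 library left out. There mmu-let-7g gave -0.40, mmu-let-7a-1 -0.43, mmu-let-7d -0.32 and mmu-let-7e -0.31. The members called numbered 5, and mmu-let-7i lost its call. mmu-let-7b then gave -0.43 and mmu-let-7c-1 -0.38, and without swim dHC library 22 they gave -0.14 and -0.13 and were not called (adjusted p 0.211 each by edgeR). With no filter, 15 of 1034 entries were lower at a higher total. There, and without control dHC library 14 or without swim vHC library 19, 3 members were called, mmu-let-7a-1, mmu-let-7f-1 and mmu-let-7g. These kept their calls with any 1 library left out, while mmu-let-7b lost its call in 14 of the 26 such fits, mmu-let-7c-1 in 15 and mmu-let-7i in 3.

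Of the other entries of the family, 4 of 5 were lower at a higher total. Among them, mmu-let-7a-2, mmu-let-7c-2 and mmu-let-7f-2 are copies counted at nearly fixed proportions of members. The fourth, mmu-let-7j, was counted at between 61.2% and 71.7% of mmu-let-7i. They are therefore not further observations of this relation. The neuronal marker entries also moved with depth, 5 of 8 being lower, while 0 of 4 blood and 0 of 8 choroid plexus markers were called. These 8 neuronal entries are precursor copies of mir-124, mir-9 and mir-128. Copies can share reads, so the entries are not separate markers. The part of cell makeup, RNA quality or library preparation in this relation was not tested.

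**Figure D5:**
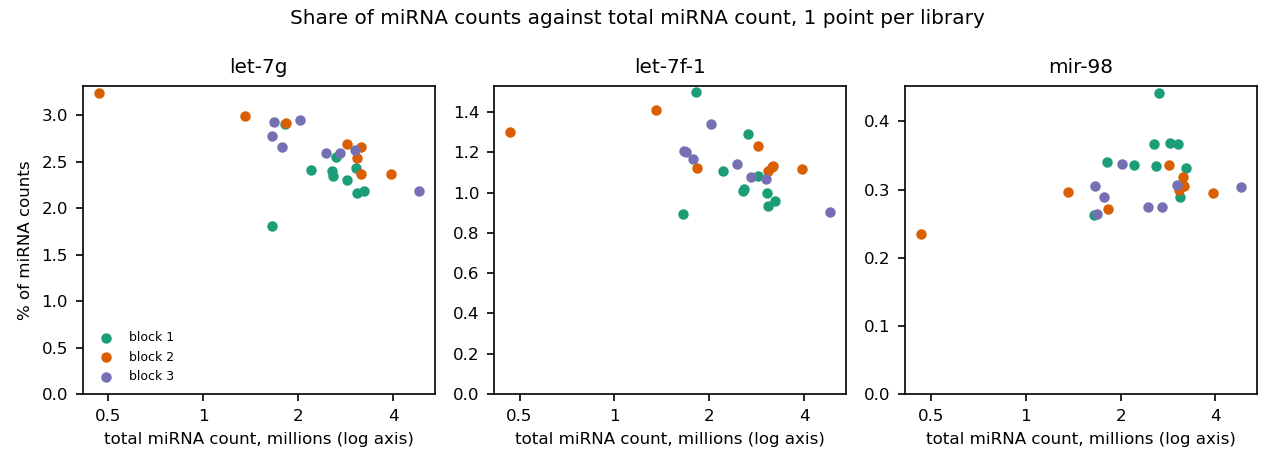
Share of miRNA counts (percent, vertical axes from 0) of let-7g, let-7f-1 and mir-98 against the total miRNA count of the library (log axis), 1 point per library coloured by block. let-7g lies at 3.24% in the library with the lowest total and at 2.19% in that with the highest, and mir-98 shows no such fall.

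The miRNAs encoded beside let-7 precursors, the mir-99, mir-100 and mir-125 family entries (6 tested), are regulators often transcribed with let-7 and were listed for comparison. None of the 6 was called for stress or region. mmu-mir-99a came nearest, at a log2 difference of 0.27 (SE 0.10) toward dHC in control mice with an adjusted p of 0.0533 by edgeR, where its neighbour mmu-let-7c-1 had -0.01.

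By block the partners did not follow 1 pattern. mmu-mir-125b-1 rose by 0.63 and mmu-mir-125b-2 by 0.59 in block 2 over block 1 on the log2 scale, and mmu-mir-125a by 0.38. mmu-mir-99b, which lies beside mmu-let-7e, fell by 0.27 in block 3 (adjusted p 0.0395 by edgeR), where mmu-let-7e rose by 0.41. At a higher total, mmu-mir-125b-1 and mmu-mir-125b-2 were lower, by 0.23 and 0.22 per doubling. These entries are precursor copies and can share reads, so they are not separate observations by block or depth.

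By the SD of the log2 ratio to the summed counts of the 9 members over 26 libraries, the entries outside the family nearest to it were mmu-mir-107 (0.16), mmu-mir-222 (0.16), mmu-mir-103-2, mmu-mir-103-1 and mmu-mir-128-2 (0.17 each). The median over 430 entries was 0.52. Of the partners, mmu-mir-125b-2 was the nearest with 0.19, in 11th place, and mmu-mir-99b the farthest with 0.36, in 84th place. Within the family, mmu-let-7a-1 was nearest to the sum (0.07) and mmu-mir-98 farthest (0.29), and each member is itself part of that sum.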

How the data were processed

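Small RNA was sequenced in 26 libraries (NEXTflex small RNA kit). Adapters were removed by the authors with cutadapt, reads identical in sequence and molecular tag were merged, and Sports assigned them. GRCm38 is named in the submitters' processing notes. The authors deposited unnormalized expected counts for each annotated RNA, which were rounded to whole numbers here because count models need them. Entries were filtered with filterByExpr (minimum count 10, minimum total 15) and scaled by TMM over miRNA entries. Stress was tested in edgeR 4.0.16 with region, stress, their interaction and 2 surrogate variables (sva 3.50.0). Region, block and depth were tested with group and block, and for depth with log2 total miRNA count. Adjustment was over 463 entries, with a threshold of 0.05. The fits with block and with surrogate variables were tried on simulated data for the region contrast in control mice only. Those data held no block or depth effect, and the stress, block and depth tests were not tried in this way. The named miRNAs were the 9 members, the other family entries, the cluster partners and the 5 nearest entries. Members and lists were chosen with earlier results of these data known. The table had 0 columns without a sample. Alternatives changed normalization, tool (DESeq2 1.42.0), filter, library size, precursor copies, covariates and libraries, and those for depth were added after seeing the data. Figures were drawn with matplotlib 3.10.9.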

Additional observations from a re-analysis of the deposited data

Results flagged for a closer look

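In 36 sets of values (9 members in 4 groups), the highest or lowest library was compared with the rest by its gap over the range of the group, and 2 sets had a library past Dixon's 95% limit. Both concerned swim dHC library 22, from block 2. mmu-let-7a-1 stood there at 24840 normalized CPM, where the next highest library of the group had 16524. mmu-let-7b stood at 13777 normalized CPM, against 8889. Chance gives about 1 such set in 20, and both sets rest on the same library. The library had the lowest total miRNA count of its group, 1357739. Its part in these values was not tested.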

How the results depend on the processing

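For stress, every member stayed uncalled in vHC and dHC under all alternatives. DESeq2, TMMwsp, DESeq2's size factors and the other settings moved small values across 0 and changed the size of larger ones. With all libraries kept, mmu-let-7b ranged from -0.35 to -0.21 in vHC over these settings and mmu-let-7d from -0.33 to -0.19. There mmu-let-7c-1 ranged from -0.32 to -0.16, mmu-let-7e from -0.28 to -0.11 and mmu-let-7a-1 from -0.22 to -0.05. In vHC mmu-let-7f-1 became 0.028 with DESeq2's size factors, 0.028 in DESeq2, 0.029 with copies summed, 0.049 with TMMwsp and 0.0031 with the library size over the whole table. mmu-let-7g became -0.037 with no filter, -0.0032 with depth as covariate, -0.062 without surrogate variables and -0.093 with block in their place. In dHC mmu-let-7i became 0.0096 with no filter and 0.019 with depth as covariate. With 1 library left out, mmu-let-7f-1 ranged from -0.049 to 0.067 (vHC) and from -0.14 to 0.0046 (dHC), mmu-let-7g between -0.040 and 0.087 in vHC and mmu-let-7i between -0.093 and 0.029 in dHC.

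Region depended on the covariates: with surrogate variables in place of block 3 members were called in control mice and 3 after swim. All were higher in dHC, where 4.32% of the 463 entries were higher in control mice and 3.02% after swim. In control mice the values were then 0.72 for mmu-let-7a-1, 0.64 for mmu-let-7c-1, 0.30 for mmu-let-7d, 0.28 for mmu-let-7e, 0.90 for mmu-let-7f-1, 1.01 for mmu-let-7g and 0.76 for mmu-mir-98. After swim they were 0.69 for mmu-let-7a-1, 0.40 for mmu-let-7d, 0.29 for mmu-let-7e, 0.85 for mmu-let-7f-1, 0.90 for mmu-let-7g and 0.77 for mmu-mir-98. With depth as covariate, 1 member was called after swim, where 22.2% of entries were. In control mice mmu-let-7c-1 turned to 0.044 with DESeq2's size factors, TMMwsp or DESeq2, 0.032 with copies summed and 0.056 with neither block nor surrogate variables, and mmu-let-7g to 0.011, 0.014 and 0.011 with the first 3 and 0.0064 with the last. After swim mmu-let-7a-1 turned to 4.1e-05 with DESeq2's size factors, 3.8e-05 in DESeq2 and 0.013 with copies summed. With 1 library left out, mmu-let-7c-1 was between -0.052 and 0.063 and mmu-let-7g between -0.19 and 0.029 in control mice, and after swim mmu-let-7a-1 was between -0.17 and 0.051, mmu-let-7c-1 between -0.0058 and 0.23 and mmu-let-7d between -0.21 and 0.025.

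The number of members called by block was 7 in DESeq2 and between 4 and 7 with 1 library left out. The number called by depth was 3 with no filter, where 15 of 1034 entries were lower at a higher total. It was between 3 and 8 with 1 library left out. Shares of all entries are not given for the fits with 1 library left out, nor for the 3 blocks together in DESeq2. The 4 members higher in block 3 than in block 1 became 1 to 6 with 1 library left out, and the 1 lower member became 0 with DESeq2's size factors, TMMwsp, DESeq2, no filter and copies summed. No alternative reversed a block or depth value. The causes were not tested. No paired analysis was possible because the library numbers in the labels are not shared between groups. Libraries of adjacent numbers were not paired, since the labels do not say that they came from one mouse. Control dHC library 24, with a total of 465387, gives the least precise values, and counts cover counting error only.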
